A study of Mus musculus with 6 samples.

Results

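The 36 genes described here encode the enzymes of glycolysis, of lactate formation, of pyruvate entry into mitochondria and of the citrate cycle, and they were chosen by name. All 36 were found among the 21851 protein-coding genes of the mouse annotation GENCODE M21 used here, where Pc carries the symbol Pcx. A promoter peak was the strongest peak with its summit, the point of highest signal, within 1 kb of an annotated start site of the gene. A further region was a merged open region with its summit within 50 kb of the gene and more than 1 kb from every start site. Open chromatin was profiled by ATAC-seq, in which a transposase cuts DNA that is not packed into nucleosomes, in 6 libraries of cultured adipocytes with 2 libraries per group.

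The cells came from the stromal vascular fraction, the mixed precursor cells of fat tissue, of wild-type C57BL/6J males aged 3 to 4 weeks. The beige and white cultures came from inguinal fat and the brown cultures from brown adipose tissue, and all were differentiated for 7 days. The labels give 5 μg/ml insulin and 0.5 mM IBMX, an inhibitor of cAMP breakdown, for every group. Beige and brown cultures received 5 μM dexamethasone, 1 nM of the thyroid hormone T3 and 1 μM of the PPARγ agonist rosiglitazone, whereas white cultures received 1 μM dexamethasone with neither T3 nor rosiglitazone. Beige against white therefore compares media within a depot, brown against beige compares depots within a medium, and brown against white changes both, so that medium and depot cannot be told apart there. The brown libraries are titled in other words than the beige and white ones, and the paper does not describe them. Whether all 6 libraries were prepared together is not stated. A difference in preparation therefore cannot be told apart from depot in the comparisons of brown. Cultures of this kind hold differentiated cells beside precursors that did not differentiate. Whether a site was open in fewer cells or less often cut in each cell cannot be told apart in such bulk libraries.

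Glycolysis splits glucose into pyruvate in the cytosol, and lactate dehydrogenase interconverts pyruvate and lactate. The pyruvate dehydrogenase complex turns pyruvate into acetyl-CoA inside mitochondria, where the citrate cycle oxidizes it and feeds electrons to the respiratory chain. In thermogenic fat this chain is uncoupled from ATP synthesis and releases heat, and in every adipocyte citrate that leaves the mitochondria is a source of carbon for fatty acid synthesis.

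The 6 lists held 109143 to 127490 peaks each and a promoter peak for 14419 to 14647 genes. A promoter peak was called in all 6 libraries for 10 of 10 adipocyte markers, against 7 of 10 progenitor, 3 of 10 macrophage, 4 of 10 endothelial and 0 of 10 skeletal muscle markers. Over all genes this share was 62.4%, which the share of progenitor markers is near. The fold enrichment and the -log10 q of a peak are scaled to its own library, so promoters were compared by percentile, where 100 is the highest rank of fold enrichment among the promoter peaks of all genes in that library and 50 is the median gene. By this measure the adipocyte markers had medians of 18.7 to 38.0 by library, below the median gene. Markers with a peak had medians of 18.3 to 27.2 for progenitors, 5.84 to 21.7 for macrophages and 19.2 to 36.7 for endothelium.

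The promoters of this pathway were open in every kind of adipocyte. Of the 36 members, 35 had a promoter peak in all 6 libraries, whereas 62.4% of all genes did. The exception was Aldoc, the aldolase best known from brain, which had no promoter peak in white replicate 2. Its percentile was 16.6 and 33.3 in beige, 14.7 in white replicate 1, and 22.5 and 4.5 in brown. These values lie below the median gene in all 5 libraries, and the missing peak was not repeated in the other white library. Summits of the members' promoter peaks lay within 718 bp of a start site. The median peak width over the members was 775 to 966 bp by library, against 655 to 827 bp over all genes.

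Promoters of isozymes that serve other tissues were open less widely. Of 13 such genes, 3 had a promoter peak in all 6 libraries, namely Eno2, the enolase of neurons, Gapdhs, the sperm form of glyceraldehyde phosphate dehydrogenase, and Ogdhl, a relative of Ogdh. The libraries held 3 to 5 of these promoters each. No promoter peak was listed in any library for Hk3, Hkdc1, Eno3, Pklr, Pgk2 or Ldhc. Among them, Pklr is the pyruvate kinase of liver, Eno3 is the enolase of muscle, and Pgk2 and Ldhc belong to the testis. The muscle gene Pgam2 had a peak in beige replicate 2 only, at a percentile of 2.17.

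**Figure D1:**
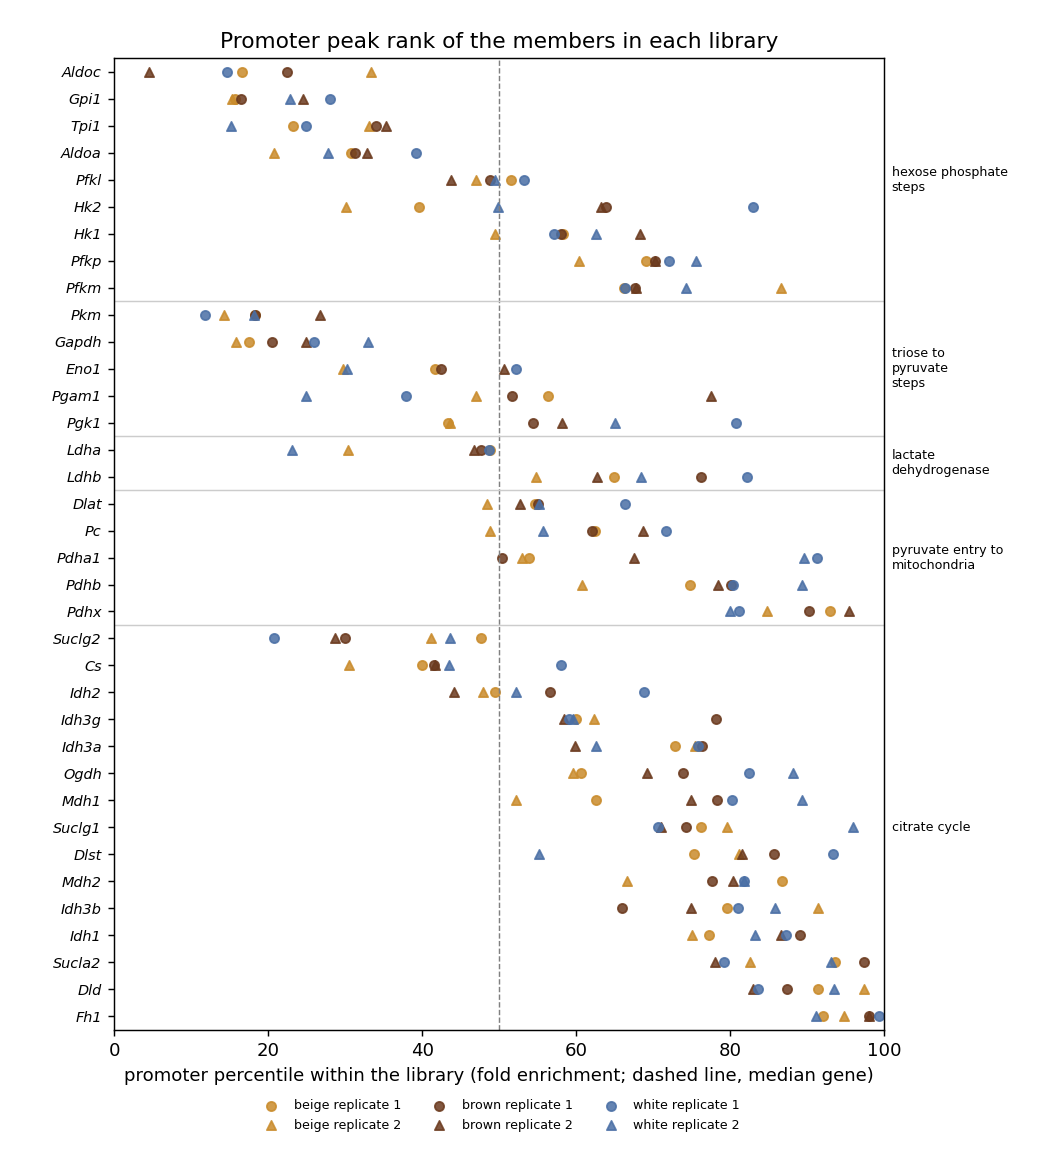
Promoter percentile of each member (x axis, 0 to 100, by fold enrichment within the library) in the 6 libraries, grouped by step of the pathway; color marks the group, shape the replicate, and the dashed line the median gene. Pkm, Aldoc and Gpi1 lay lowest, and Fh1 lay above 91 in every library.

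The median rank of the promoters was higher for the citrate cycle than for glycolysis in each of the 6 libraries. The median percentile of the 15 citrate cycle members was 74.9 to 83.2 by library, and that of the 5 members of pyruvate entry was 52.9 to 80.4. The 9 members from hexokinase to triose phosphate isomerase had medians of 33.3 to 53.3, the 5 from glyceraldehyde phosphate dehydrogenase to pyruvate kinase 29.6 to 50.6, and both lactate dehydrogenase subunits 42.5 to 65.5. For glycolysis and lactate together the mean of the 6 library medians was 42.7 ± 7.89 (SD, n = 6 libraries). For pyruvate entry and the citrate cycle it was 75.2 ± 6.4 (SD, n = 6). These SDs are over beige, white and brown libraries together, so they mix differences between cultures with those between replicates. The citrate cycle list holds the cytosolic enzymes Idh1 and Mdh1 beside the mitochondrial ones. When promoters were ranked by -log10 q, which also grows with the number of reads at the summit, the medians came closer, at 57.8 ± 5.19 for the first group and 77 ± 4.04 for the second. The remaining citrate cycle genes, which encode the aconitases and succinate dehydrogenase, had medians of 62.5 to 74.3. These rankings are descriptions of the list, with no test. By library, a median of 11.1% to 14.5% of the bases within 5 kb of the promoter summit lay under peaks for glycolysis and lactate. For pyruvate entry and the citrate cycle it was 9.57% to 11.7%, and for all genes 9.12% to 11.1%. Fold enrichment is a ratio over local background, and the part of this nearby signal in the ranks was not tested.

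**Figure D2:**
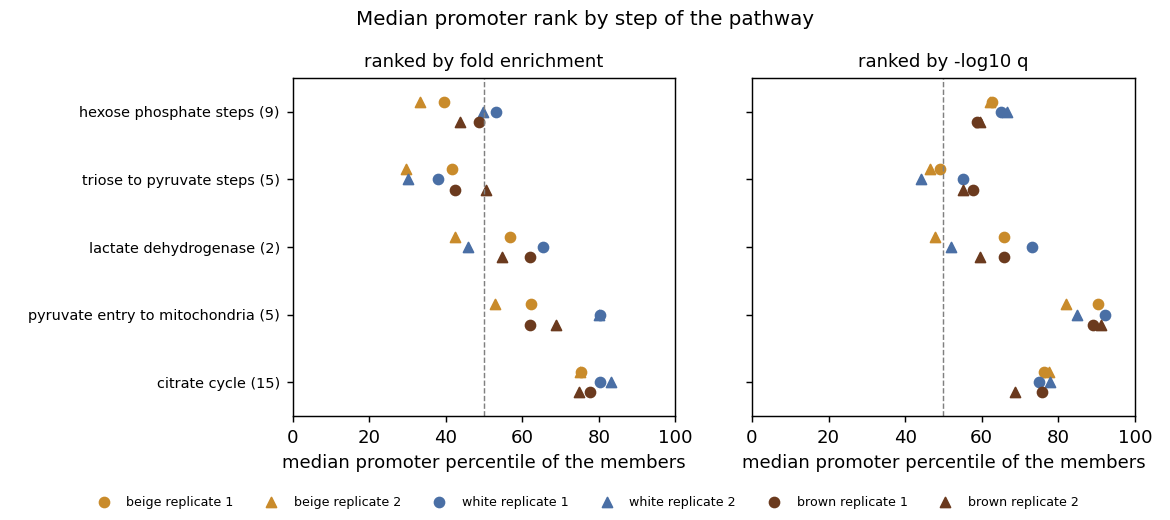
Median promoter percentile of the members at each step of the pathway (number of genes in brackets), ranked by fold enrichment (left) and by -log10 q (right), in the 6 libraries. By fold enrichment the citrate cycle medians lay at 74.9 to 83.2, to the right of both groups of glycolytic steps in every library, and by -log10 q the members of pyruvate entry lay highest.

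Among the glycolytic members the promoters of lowest rank included some of the best known enzymes. Pkm, whose pyruvate kinase makes ATP in the last step, had percentiles of 18.2 and 14.3 in beige, 11.8 and 18.2 in white, and 18.3 and 26.7 in brown. Gpi1, which turns glucose 6-phosphate into fructose 6-phosphate, had percentiles of 15.7 and 15.3 in beige, 28.1 and 22.8 in white, and 16.4 and 24.5 in brown. Gapdh, which oxidizes glyceraldehyde 3-phosphate, ranked next after Aldoc and these genes, at 17.5 and 15.8 in beige, 26 and 33 in white, and 20.5 and 24.9 in brown. For Gapdh both white libraries ranked above the others. For Pkm both brown libraries did, brown replicate 1 at nearly the same percentile as beige replicate 1 and white replicate 2. The peaks had different shapes. That of Gapdh was 316 to 361 bp wide, under the gene median of every library, and that of Pkm was 857 to 933 bp wide, above it. By -log10 q Gapdh moved to the middle of the promoters, at percentiles of 45.1 to 71.2.

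The highest ranks belonged to mitochondrial enzymes. Fh1, the fumarase, had percentiles of 92.1 and 94.8 in beige, 99.4 and 91.2 in white, and 98.1 in both brown libraries. Dld, the dihydrolipoamide dehydrogenase shared by the pyruvate and oxoglutarate dehydrogenase complexes, had 91.4 and 97.4 in beige, 83.7 and 93.5 in white, and 87.4 and 83.0 in brown. Pdhx, the protein that anchors Dld in the pyruvate dehydrogenase complex, had 93.0 and 84.8 in beige, 81.2 and 80.0 in white, and 90.3 and 95.4 in brown. The neighbors Fh1 and Dld, and Dld and Pdhx, overlapped in this order across libraries. Suclg2, the GTP-forming succinyl-CoA ligase subunit, and Cs, the citrate synthase that starts the cycle, were the citrate cycle members of lowest rank. Their mean percentiles were 35.3 ± 10.4 and 42.5 ± 8.9 (SD, n = 6, over beige, white and brown libraries together). Pdhx had a start site of Apip within 1 kb of its own, and 5 other members shared their promoter window with a neighbor in the same way, namely Idh3g with Ssr4, Pfkm with Senp1, Mdh1 with Wdpcp, Mdh2 with Styxl1 and Idh1 with Pikfyve. A peak between such neighbors cannot be assigned to one of them.

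Start sites were also taken one by one, since 11 members had start sites in several places, grouped into clusters. A cluster was called open where a summit lay within 500 bp of it. Over the 36 members there were 49 clusters, of which 40 were open in all 6 libraries, 6 in none and 3 in some. Hk1, the hexokinase of most tissues, had 4 clusters, and the one at chr10:62340542 was open in every library with a -log10 q of 175 and 160 in beige, 94.3 and 65.3 in white, and 196 and 182 in brown. The other Hk1 clusters were closed except for a peak of 3.6 in white replicate 2 at chr10:62358362. In Hk2, the hexokinase that insulin regulates in fat and muscle, the main start at chr6:82774454 and a second one at chr6:82773363 were both open in all 6 libraries. The second Hk2 start was much nearer to the authors' threshold, with a -log10 q of 24.9 and 23.7 in beige, 14.0 and 15.8 in white, and 11 and 11.4 in brown, against 63.3 to 264 at the main start.

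Pfkm, the phosphofructokinase of muscle, took its percentile mostly from a summit near the start of a neighbor. Its strongest promoter summit lay 711 to 718 bp past a Pfkm start in 5 of the 6 libraries, on the side of the start of Senp1, a SUMO protease gene on the other strand. At the first Pfkm cluster itself, chr15:98092589-98092644, a peak was called in beige replicate 2, both white libraries and brown replicate 1, with a -log10 q of 16.6, 9.6, 17.1 and 4.52. The second Pfkm cluster, at chr15:98108466, was open in all 6 libraries, at 61.6 and 74.8 in beige, 55.1 and 31.7 in white, and 73.7 and 54.2 in brown. The Pfkm start inside the gene had a higher -log10 q than the first cluster in each library.

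In 4 other members a weaker second cluster stood beside the main one in all 6 libraries. At the Aldoa cluster chr7:126799141-126799254 the -log10 q was 126 and 101.4 in beige, 76.9 and 41.9 in white, and 122 and 104 in brown, and at chr7:126800447 it was 25.2 and 16.9, 12.3 and 11.8, and 25.8 and 12.8 in the same order. Aldoa encodes the aldolase of most tissues, and Ldha the muscle-type subunit of lactate dehydrogenase. At the Ldha cluster chr7:46845839-46845841 the values were 152 and 107 in beige, 74.5 and 27 in white, and 155 and 121 in brown, and at chr7:46847082-46847596 they were 8.86 and 12.4, 8.23 and 10.8, and 11.4 and 5.51. Pc, the pyruvate carboxylase that refills the cycle with oxaloacetate, had 199 and 188 in beige, 133 and 57.6 in white, and 227 and 200.2 in brown at chr19:4510472-4510486, and 15.9 and 10.8, 8.62 and 5.96, and 11.4 and 9.37 at chr19:4594346. In these 3 members the order of both clusters was the same in every library. The second start of Idh1, the cytosolic isocitrate dehydrogenase, reached the highest values of the 4 second clusters, with 65.4 and 61.4 in beige, 73.2 and 31.5 in white, and 96.2 and 100.1 in brown at chr1:65179181. The first Idh1 start at chr1:65186479 had 193 and 185 in beige, 104 and 64.4 in white, and 222 and 175 in brown.

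The promoter sequences were read next, because the peaks sit on them. RefSeq promoters of 250 bases before to 50 bases after the start, on GRCm38.p6, were matched for 34 members and 10174 of the genes with a promoter peak in all libraries. Aldoc and Idh3a were not matched. Median GC content was 62% in both sets. The letters of 10 motifs were searched on both strands. Of these, ACGTGC is the core of the hypoxia response element bound by HIF-1, the factor known for inducing glycolytic genes. CACGTG is the E-box of MYC and USF, and both letter strings can overlap in CACGTGC. TGACGTCA is the full cAMP response element, CCGGAAG the ETS site, GCGCATGCG the NRF1 site and AAGATGGC the YY1 site.

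The stretches that follow are the 160 bases before the RefSeq start of the members that these matches and the rank comparison turn on, 5′ to 3′ on the strand of the gene. Capitals mark matches to those 6 motifs on either strand, while GC boxes and CCAAT boxes are left in lower case. Ldha lies at chr7:46845644-46845803 (+), Pgk1 at chrX:106186940-106187099 (+), Pgam1 at chr19:41911711-41911870 (+), Mdh2 at chr5:135778489-135778648 (+), Ogdh at chr11:6291499-6291658 (+), Idh3g at chrX:73786898-73787057 (-) and Pdha1 at chrX:160138431-160138590 (-).
Ldha: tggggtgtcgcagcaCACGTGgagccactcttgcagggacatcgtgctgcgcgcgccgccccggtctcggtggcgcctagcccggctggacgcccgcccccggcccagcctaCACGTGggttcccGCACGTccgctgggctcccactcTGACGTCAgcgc
Pgk1: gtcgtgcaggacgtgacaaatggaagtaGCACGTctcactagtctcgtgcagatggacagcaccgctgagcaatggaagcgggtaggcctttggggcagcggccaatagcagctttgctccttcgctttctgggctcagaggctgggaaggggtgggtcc
Pgam1: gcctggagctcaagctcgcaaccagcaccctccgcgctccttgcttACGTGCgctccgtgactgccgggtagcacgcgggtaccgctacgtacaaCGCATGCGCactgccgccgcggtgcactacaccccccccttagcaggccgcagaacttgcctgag
Mdh2: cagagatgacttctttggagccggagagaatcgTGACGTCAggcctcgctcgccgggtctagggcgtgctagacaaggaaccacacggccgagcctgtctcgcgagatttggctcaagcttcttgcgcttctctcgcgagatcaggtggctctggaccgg
Ogdh: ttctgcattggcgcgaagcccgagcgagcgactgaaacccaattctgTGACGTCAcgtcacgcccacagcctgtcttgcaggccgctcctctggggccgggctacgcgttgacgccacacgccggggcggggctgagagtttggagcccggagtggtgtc
Idh3g: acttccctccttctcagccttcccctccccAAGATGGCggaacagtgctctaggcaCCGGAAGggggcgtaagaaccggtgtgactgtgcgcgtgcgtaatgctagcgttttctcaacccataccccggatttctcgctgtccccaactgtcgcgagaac
Pdha1: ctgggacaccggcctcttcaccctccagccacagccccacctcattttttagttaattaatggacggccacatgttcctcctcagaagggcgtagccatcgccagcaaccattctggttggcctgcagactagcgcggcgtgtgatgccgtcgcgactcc

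The hypoxia core was found in 5 of the 34 member promoters, and all 5 encode enzymes of glycolysis or lactate formation, namely Hk1, Gapdh, Pgk1, Pgam1 and Ldha. That is 5 of 15 promoters of glycolysis and lactate formation and 0 of 19 of pyruvate entry and the citrate cycle, and 8.46% of all promoters held these letters. Of the stretches printed, that of Ldha carried the most marked matches, with E-boxes starting 145 and 48 bases before the start, the hypoxia core at 35 and the cAMP response element at 12. The cAMP response element was found in Ldha and in 2 citrate cycle genes, Ogdh and Mdh2, against 3.46% of all promoters. The E-box was found in Ldha, Pc and Pfkm, against 10.4% of all promoters.

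The citrate cycle members held the ETS letters in Dlst, Idh3b and Idh3g, or 3 of 34 member promoters, against 18.4% of all promoters. NRF1 letters were found in Pgam1 alone, against 3.84%, and YY1 letters in Idh3g alone, against 4.7%. No member promoter held TATAAA, the TATA box, against 6.19% of all promoters. None held TCAAGGTCA, an extended site of the estrogen-related receptors, which was found in 0.197% of all. GC boxes, GGGCGG, were found in 25 of 34 member promoters against 68.9%, and CCAAT boxes in 19 of 34 against 38.5%. The Pdha1 promoter held none of the 10 motifs. In windows of 100 bases to each side of the strongest summit, the hypoxia core was found in 5 to 7 members by library, against 6.09% to 6.67% of all such windows, and the cAMP response element in 2 to 4, against 2.66% to 3.31%. There the ETS letters were found in 4 to 6 members, against 15.8% to 16.4%, and the E-box in 1 to 3, against 6.55% to 8.01%. A match of letters is not a measured binding site.

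**Figure D3:**
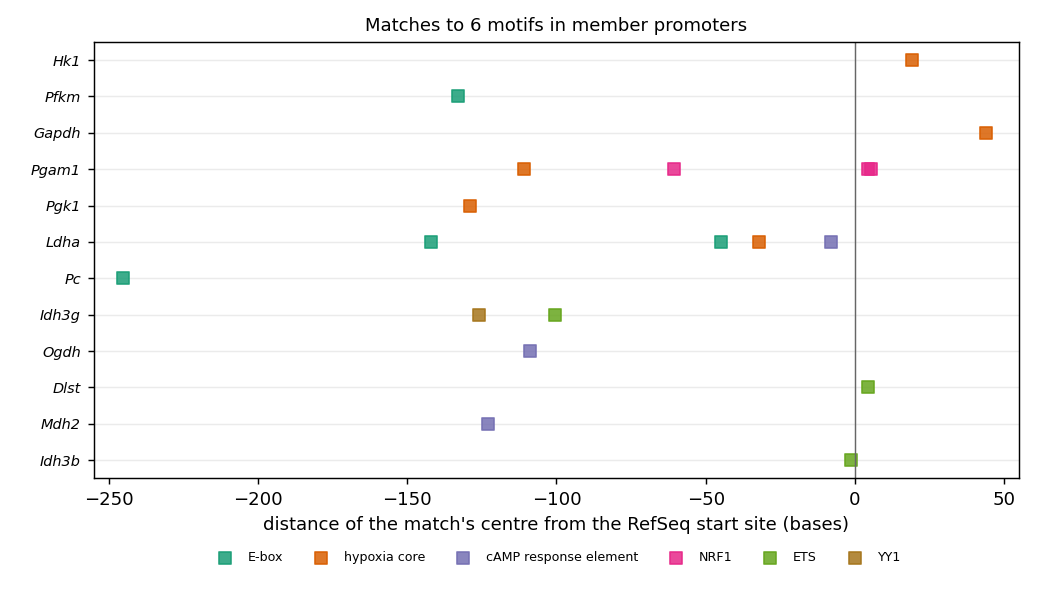
Positions of the matches to 6 motifs (centre of the match, in bases from the RefSeq start site at 0) in the 12 member promoters that hold any of them. The hypoxia core appears in the rows of Hk1, Gapdh, Pgam1, Pgk1 and Ldha and in no row of pyruvate entry or the citrate cycle.

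The promoter ranks were compared between groups on normal scores, which turn ranks within a library into values of a standard normal distribution. A limma model was fitted over the 13637 genes with a promoter peak in all libraries, with Benjamini-Hochberg adjustment, and a gene was called at an adjusted p under 0.05. For single genes an exact permutation test of 2 libraries against 2 can give no two-sided p below 0.33. Between beige and white, 1 of the 35 members tested was called, or 2.86%, and 2.68% of all genes were. Between brown and white 0 of 35 were called, against 0.741% of all genes, and between brown and beige 0 of 35, against 0% of all. At an unadjusted p under 0.05 the members numbered 8, 3 and 1, which is 22.9%, 8.57% and 2.86% of them, against 21.1%, 18.7% and 11.9% of all genes. The share of members was therefore near that of all genes between beige and white and below it in both comparisons of brown.

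The called member was Pdha1, the catalytic E1 alpha subunit of the pyruvate dehydrogenase complex (chrX:160122209-160138413, minus strand). Its promoter percentile was 53.9 and 52.9 in beige, 91.3 and 89.6 in white, and 50.4 and 67.5 in brown. Both white libraries stood above the 4 cultures that received T3 and rosiglitazone, and beige and brown overlapped. The normal score was lower in beige than in white by a difference of -1.22 ± 0.244 (SE, 2 libraries per group, limma, adjusted p = 0.0277). The brown minus white difference of -1.08 ± 0.244 had an adjusted p of 0.0605 in the same limma fit. By -log10 q the percentiles were 55.1 and 55.7 in beige, 79.2 and 85.0 in white, and 56.0 and 69.5 in brown, and the limma adjusted p for beige against white was 0.0604. In limma without the mean-variance trend it was 0.0517. The call was also lost when any of the beige or brown libraries was left out, with limma adjusted p-values of 0.127 and 0.166 without beige replicate 1 and 2 and of 0.0794 and 0.0733 without brown replicate 1 and 2, while in these fits the difference stayed between -1.21 and -1.24.

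Pdha1 is X-linked. Over 415 X-linked genes the median beige minus white difference was -0.21, and 69.2% of them were lower in beige, against -0.01 and 51.2% over all genes. The fit called 15 of the 415, or 3.61%, beside 2.68% of all genes. The X-linked member Pgk1, which makes ATP from 1,3-bisphosphoglycerate, had percentiles of 43.4 and 43.5 in beige, 80.8 and 65.1 in white, and 54.5 and 58.2 in brown. Its difference between beige and white of -0.79 ± 0.222 (SE) had a limma adjusted p of 0.0716. Idh3g, the third X-linked member and a subunit of the mitochondrial NAD-dependent isocitrate dehydrogenase, had percentiles of 60.0 and 62.3 in beige and 59.1 and 59.6 in white, a difference of 0.05. The part of the lower X-linked ranks in the Pdha1 result was not tested.

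The other large differences between beige and white did not pass the threshold. They are named after their values were seen. Mdh1, the cytosolic malate dehydrogenase of the malate-aspartate shuttle, had percentiles of 62.6 and 52.1 in beige, 80.2 and 89.3 in white, and 78.3 and 75.0 in brown, and a beige minus white difference of -0.86 (limma adjusted p = 0.084). Ogdh, the E1 subunit of the oxoglutarate dehydrogenase complex, had 60.6 and 59.6 in beige, 82.5 and 88.2 in white, and 73.8 and 69.2 in brown, a difference of -0.80 (limma adjusted p = 0.0861). Hk2 had 39.6 and 30.1 in beige, 82.9 and 49.9 in white, and 63.9 and 63.3 in brown, a difference of -0.87 (limma adjusted p = 0.099). In each of these 3 genes both beige libraries lay below both white libraries. Without white replicate 1 Mdh1 was called (limma adjusted p = 0.0417), and without white replicate 2 Hk2 and Pgk1 were (0.0244 and 0.034). These fits leave a single white library, which is assumed to vary like the other groups.

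Pgam1, the phosphoglycerate mutase, leaned the other way. Its percentiles were 56.3 and 47.0 in beige, 37.9 and 24.9 in white, and 51.7 and 77.5 in brown, so that all 4 libraries of the medium with T3 and rosiglitazone stood above white. The brown minus white difference was 0.89 ± 0.246 (SE, limma adjusted p = 0.0958) and the beige minus white difference 0.53 (limma adjusted p = 0.234). Ranked by -log10 q, the Pgam1 difference between brown and white was called at 0.94 (limma adjusted p = 0.0432). Without white replicate 1, Pgam1 was called at 1.08 (limma adjusted p = 0.0374) and Pdha1 at -1.03 (0.0333) between brown and white, again with a single white library whose spread is taken from the other groups.

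Across the members, 23 of 35 were lower in beige than in white, with a median difference of -0.21, against 51.2% and -0.01 over all genes. The median difference was -0.15 for the 15 members of glycolysis and lactate and -0.23 for the 20 of pyruvate entry and the citrate cycle. Both beige libraries lay below both white ones in 14 members, or 40%, whereas 25.3% of all genes had this order, and both lay above in 3 members (Idh3g, Pdhx and Pgam1), whereas 25% of all genes did. Between brown and white the median was -0.10, against 0.01 over all genes. Here 12 members, or 34.3%, lay wholly below white against 23.6% of all genes, and 4, or 11.4%, wholly above against 24.3%. Brown lay wholly above beige in 16 members, or 45.7%, and wholly below in 4, or 11.4%, whereas 26.9% and 23% of all genes did. The median brown minus beige difference was 0.20, against 0.02 over all genes. These comparisons share libraries in pairs, and the counts were not tested.

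**Figure D4:**
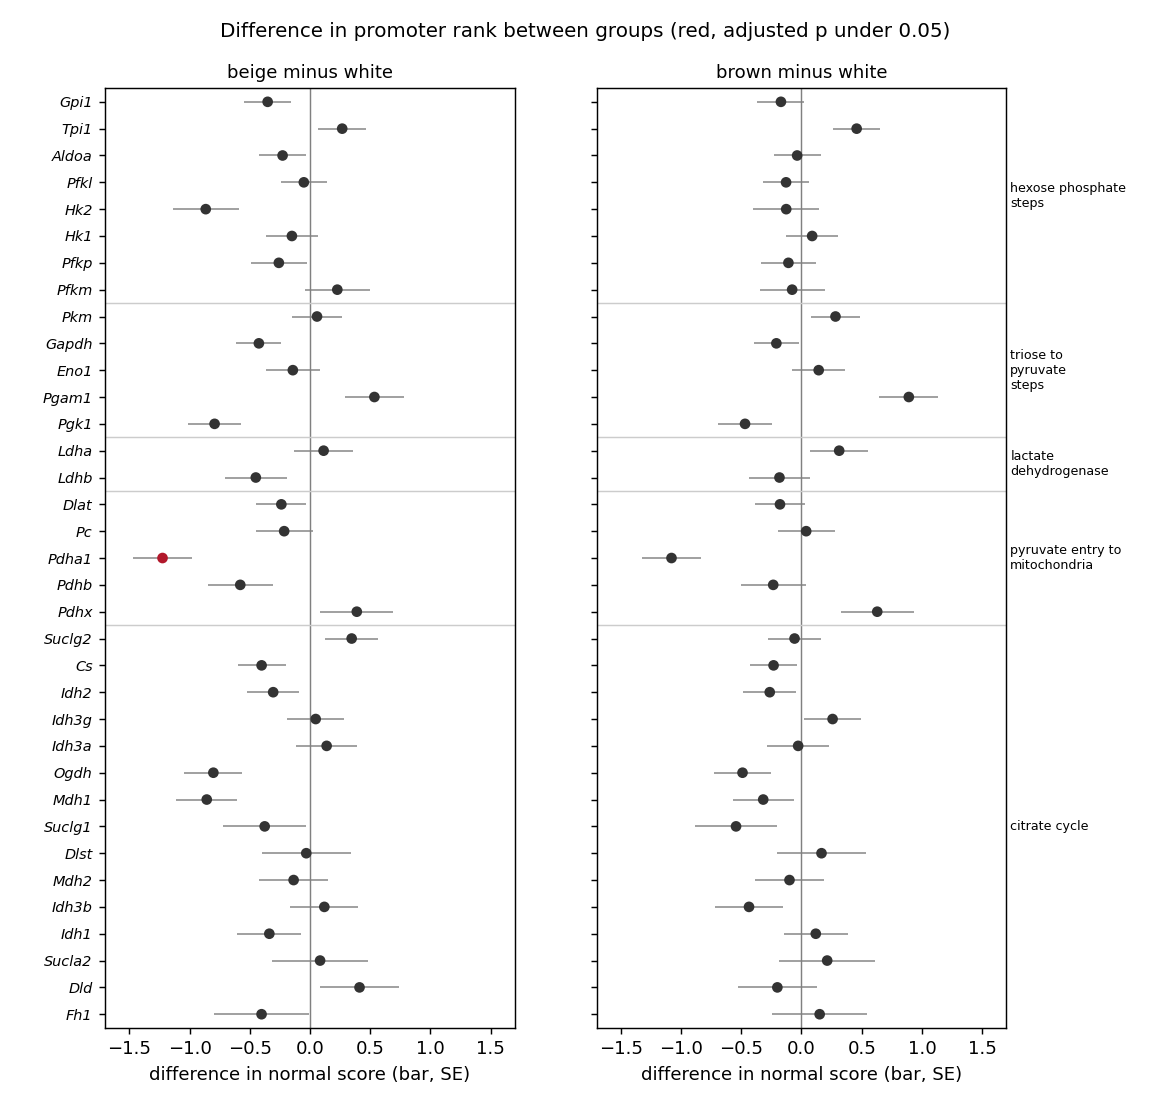
Difference in normal score of the promoter rank for 35 members (points, with the SE of the limma fit as bars), beige minus white on the left and brown minus white on the right; negative values are lower than white. Pdha1 at -1.22 was the called member in beige minus white, and no member was called in brown minus white.

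The other genes of the pathway were compared in the same way. Of 29 other genes of the pathway, 26 had a promoter peak in all 6 libraries. The fit called 0 of these as higher and 1 as lower in beige than in white, and the same gene was lower in brown than in white, a comparison with the same white libraries. This is 3.85% of the 26, beside 2.68% of all genes for beige and 0.741% for brown. The gene was Pdk4, the kinase that switches the pyruvate dehydrogenase complex off by phosphorylating its E1 alpha subunit. The Pdk4 percentile was 22.6 and 20.7 in beige, 69.7 and 69.3 in white, and 34.1 and 30.2 in brown. White stood apart from both other groups, with limma differences of -1.30 ± 0.179 (SE, adjusted p = 0.0135) for beige and -0.97 ± 0.179 (SE, adjusted p = 0.0394) for brown. Pdk1, Pdk2 and Pdk3, the other kinases of the complex, had beige minus white differences of -0.04, 0.12 and -0.01. The mitochondrial pyruvate carrier genes Mpc1 and Mpc2 had differences of -0.47 and -0.33, and neither passed the test. None of the 10 adipocyte, 7 progenitor, 3 macrophage and 4 endothelial markers tested was called in any of the 3 comparisons, and no muscle marker could be tested. The median beige minus white difference was -0.35 over the 10 adipocyte markers, -0.06 over 7 progenitor markers, -0.11 over 3 macrophage markers and -0.30 over 4 endothelial markers. The part of differentiation state in the members' differences was not tested.

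Away from promoters, 498 further regions lay within 50 kb of the members, of which 276 were intronic, 178 intergenic and 44 exonic. A member had 3 (Gapdh) to 30 (Hk2) such regions, with a median of 14, against a median of 11 over all genes. The nearest start site was that of the member itself for 222 regions, or 44.6%, so most of these regions lay nearer to another gene. Of the 498, 150 had a peak in all 6 libraries, or 30.1%, against 27% of 132778 regions within 50 kb of any gene, and 179 had a peak in a single library. The regions with a peak in all libraries were compared by rank in a limma fit over 44105 such regions. Of the 150 near members 0 were called between beige and white, 0 between brown and white and 0 between brown and beige, against 0.0453%, 0.0748% and 0% of all regions. At an unadjusted p under 0.05 they numbered 25, 26 and 25, or 16.7%, 17.3% and 16.7%, near the 16.7%, 16.1% and 15.6% of all regions.

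Presence was compared next. A peak in both beige libraries and in neither white one was found at 35 regions, or 7.03%, against 5.11% of all regions. The reverse, white and not beige, held at 12, or 2.41%, against 2.04%. Brown and not white held at 23 regions, or 4.62%, against 3.19%, and white and not brown at 14, or 2.81%, against 3.63%. Between the cultures in the shared medium, 30 regions, or 6.02%, were open in beige and not brown, against 5.25%, and 7, or 1.41%, in brown and not beige, against 1.59%. Within the 35 regions of beige and not white, 15 were also open in both brown libraries and 14 in neither. The same split of the 6785 such regions near any gene is not given here, so it cannot be called particular to the members. In all, 79 regions followed at least one of these patterns. A missing peak means only that the authors' threshold was not reached. Leaving out a library of either group loosens the rule, so the counts then tend to rise by construction. The beige and not white count was 89 without beige replicate 1, 53 without white replicate 1 and 62 without white replicate 2. Without white replicate 2 the white and not beige count was 69, and without brown replicate 1 the brown and not white count was 55. Shares of all regions under the looser rule are not given here.

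**Figure D5:**
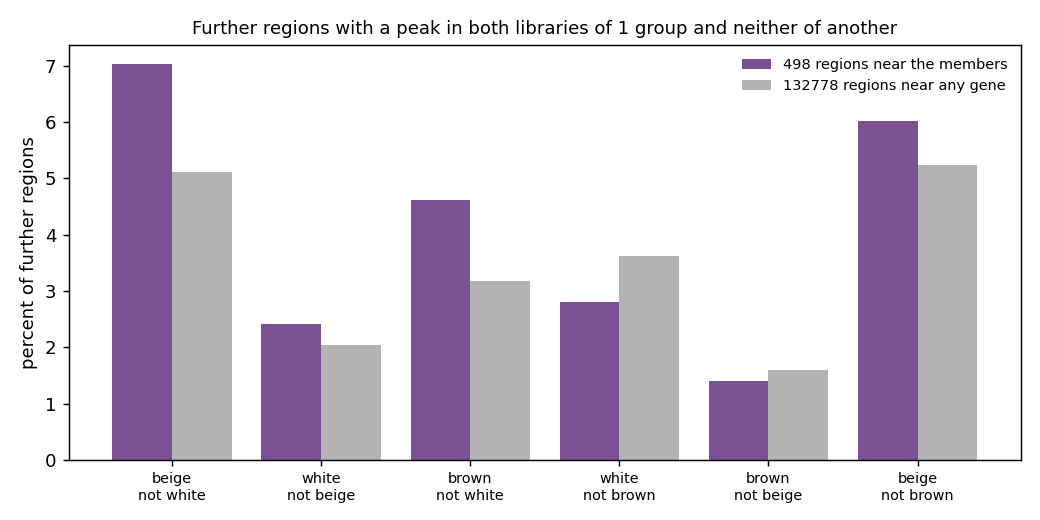
Percent of further regions with a peak in both libraries of the first group and neither of the second, for 498 regions near the members (purple) and 132778 regions near any gene (grey), with bars from 0. The beige and not white bar is the tallest for the members, at 7.03% against 5.11% of all regions.

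The 12 patterned regions with the highest mean -log10 q were taken one by one, and 11 are described. In 4 of them beige and brown were open and white was not. At Sucla2, the ATP-forming succinyl-CoA ligase subunit, the region chr14:73582062-73582514 lay in an intron 29.6 kb past the start and had a -log10 q of 10.3 and 25.3 in beige and 16.8 and 10.5 in brown. It was far above the threshold in the 4 libraries of the shared medium and absent from both white lists.

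Idh2, the mitochondrial NADP-dependent isocitrate dehydrogenase, had 2 of this kind. The intergenic region chr7:80130319-80130738, 15.2 kb before the Idh2 start, had a -log10 q of 11 and 8.11 in beige and 17.5 and 24.8 in brown. The region chr7:80056937-80057481, in an intron of Zfp710 and 58.1 kb past the Idh2 start, had 5.8 and 9.7 in beige and 14.4 and 18.4 in brown. Another Idh2 region, chr7:80132598-80132845, 17.4 kb before the start, was open in both beige libraries at 9.2 and 22.6 and in brown replicate 2 at 6.3, and in no white library. Idh2 and Sucla2 each had 5 regions open in beige and not white, the most of any member, among 24 and 20 regions. Over all regions within 50 kb of a gene 5.11% had this pattern, and the counts of these members were not tested.

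Regions open in beige alone stood near 4 members of different steps. They were chr12:85092293-85092522, 18.4 kb before the start of Dlst and inside Prox2, with a -log10 q of 15.9 and 20.1, and chrX:160170223-160170481, in intergenic sequence 31.9 kb before the start of Pdha1, with 11.2 and 20.0. The others were chr2:103086518-103086756, in an intron of Apip 13.1 kb before the start of Pdhx, with 11.5 and 13.0, and chr15:98173871-98174130, 65.5 kb past the second start of Pfkm and nearest to Ccdc184, with 7.2 and 16.9. In each the value in beige replicate 2 was the higher, and beige replicate 2 was also the longest list. Dlst encodes the E2 subunit of the oxoglutarate dehydrogenase complex.

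Pfkp, the platelet-type phosphofructokinase, had 2 regions nearest to the start of Pitrm1. At chr13:6576171-6576416 beige had a -log10 q of 10.8 and 20.6, brown replicate 1 had 6.9, and white had no peak. At chr13:6535650-6535909 beige had 5.4 and 24.7, white replicate 2 had 4.2, and brown had no peak. One of the 12 was open in white alone. It lay in an intron of Cs, chr10:128343525-128343747, 5.9 kb past the start, with a -log10 q of 12.5 and 10.5 in white and no peak in beige or brown. Pdha1, whose promoter ranked lower in beige than in white, had 3 of its 10 further regions open in beige and not white and 0 open in white and not beige. Over all regions within 50 kb of a gene the shares were 5.11% and 2.04%, and counts of a single member were not tested.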

How the data were processed

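ATAC-seq peak lists of 2 beige, 2 white and 2 brown adipocyte libraries were used; the paper calls the ATAC-seq replicates biological and does not describe the brown libraries. The authors trimmed the reads, aligned them to mm10 with BWA and called peaks in each library with MACS2 at a q value under 0.05. Each line of a deposited list is a summit with its fold enrichment, a ratio of the pileup over the local background of that library, and its -log10 q. These lists hold no read counts, and the read totals that the paper gives for the beige and white libraries were not used. In those totals both beige libraries had fewer mapped reads, and a lower share mapped, than both white ones. The part of this in the differences between beige and white was not tested. The number of ranked peaks sets how finely the percentiles of a library are spaced. Extra weak promoter peaks in a library also raise the percentiles of the others. For insulin the paper's methods and the labels differ, and the labels are given here.

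Promoters were 1 kb to each side of the start sites of protein-coding transcripts in GENCODE M21 (basic set). For Aldoa the gene entry with several transcripts was used and a read-through entry was not. Peaks of all libraries that overlapped by at least 1 bp were merged into 194610 regions. Ranks by fold enrichment within a library were turned into normal scores and compared with limma 3.58.1 (R 4.3.3, mean-variance trend, all 6 libraries, no block), with Benjamini-Hochberg adjustment over all promoters or regions with a peak in all libraries. Other steps used Python 3.11.15, numpy 2.4.6, pandas 2.3.3 and matplotlib 3.10.9. The fits and the motif search were tested on simulated data, where the region fit recovered fewer shifts than the promoter fit at each size, most of all for small shifts.

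All members were accounted for, and values in every library were given for members without a promoter peak in all libraries, members called, the 3 of highest and of lowest mean percentile, members with several open start clusters, and, with 1 exception, the 12 patterned regions of highest mean -log10 q. The members, lists, motifs and tests were chosen with earlier results of these data known. The description of the X chromosome and the medians by -log10 q were added after values had been seen. Alternatives were ranks by -log10 q, a q value under 0.00001, equally long lists, a replicate block, limma without the trend, ranks among all peaks, other distances and each library left out. A few items, the excepted region among them, are not reported here.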

Additional observations from a re-analysis of the deposited data

How the results depend on the processing

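The number of members with a promoter peak in all libraries was 35 under each alternative tried except 36 without white replicate 2. Between beige and white the count of called member promoters was 0 with ranks by -log10 q and 0 with limma without the trend, and 0 to 3 with a library left out. Between brown and white it was 1 with ranks by -log10 q and 0 to 3 with a library left out. With white replicate 2 left out, Hk2 and Pgk1 were called beside Pdha1 in beige against white, at limma adjusted p-values of 0.0244 and 0.034, and with white replicate 1 left out Mdh1 was, at 0.0417. Without white replicate 1 the 3 calls in brown against white held Pdha1 and Pgam1, at limma adjusted p-values of 0.0333 and 0.0374. A group left with 1 library is assumed to vary like the others. The mean of the medians of the glycolysis and lactate members was 57.8 by -log10 q and 83.1 among all peaks. That of pyruvate entry and the citrate cycle was 95.2 among all peaks. Over all genes it was 87.3 among all peaks, so the glycolysis and lactate members lay below it on this scale.

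Deviations of same-numbered libraries correlated at -0.036 to 0.071. Whether same-numbered libraries were prepared together is not stated and cannot be read from these values. With the replicate block, Pdha1 kept its call in beige against white (difference -1.22, limma adjusted p = 0.029), and 1 further region was called in beige against white and 1 in brown against white. For further regions between brown and white, 2 were called by -log10 q and 0 to 3 with a library left out, the highest without white replicate 1.

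Counts of patterned further regions moved with the distance and the libraries. A wider window holds more regions near the members, with 281 within 20 kb, 498 within 50 kb and 856 within 100 kb. Of those within 100 kb, 269 were open in all libraries, 57 in beige and not white and 45 in brown and not white. Of those within 20 kb, 5 were open in white and not beige and 11 in brown and not white. Shares over all regions at these distances are not given here, so the counts alone do not show a change in pattern. With a library left out, beige and not white ranged from 35 to 89 and white and not beige from 12 to 69. Brown and not white ranged from 23 to 55. The highest counts came without beige replicate 1, white replicate 2 and brown replicate 1, in that order. Leaving out a library of either compared group loosens the rule, so this rise does not measure how stable the counts are. Peak lists without reads cannot show whether a missing peak lay just under the threshold.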
